A study of Mus musculus with 7 samples.

Results

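Interleukin 1 is the founding member of a family of cytokines that start and restrain inflammation, and 10 of its genes were followed here in leukocytes of mouse brains bearing GL261 glioma: Il1a, Il1b, Il1rn, Il1r1, Il1r2, Il1rap, Il18, Il18bp, Il18r1 and Il1rl1. They were chosen by symbol, and each matched 1 of the 32285 gene rows of the count tables. The cells were CD45+ DRAQ7-, that is, living leukocytes by sorting, from the left hemisphere of wild-type female mice aged 8 to 9 weeks, harvested at day 21 after implantation of GL261, a syngeneic glioma line. 4 groups were sequenced by droplet single-cell RNA-seq: PT2385+ICB, PT2385, ICB and Untreated. PT2385 is a small-molecule inhibitor of HIF-2α given at 10 mg/kg, ICB is immune checkpoint blockade with antibodies to PD-1 (RPM1-14) and TIM-3 (B8.2C12), and PT2385+ICB mice received both, from day 7. Vehicle and isotype antibody controls are described, but not which of them the untreated mice received. Each library pooled cells of 2 mice, and the 3 treated groups had 2 libraries each, called pool 1 and pool 2. The untreated group had 1 library here, and a further untreated pool was not analysed here. The text compares the PT2385-treated with the other libraries, ICB-treated with the other libraries, and PT2385+ICB with ICB and with untreated mice.

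IL-1α (Il1a) and IL-1β (Il1b) both signal through the receptor chain encoded by Il1r1 together with the accessory chain encoded by Il1rap, which leads to NF-κB activation. IL-1β is made as a precursor that is cut by caspase 1 in inflammasomes, while IL-1α is active without that cut and serves as an alarm signal of damaged cells. The family carries its own brakes: Il1rn encodes a receptor antagonist, Il1r2 a decoy receptor that binds IL-1 without signalling, and Il18bp a secreted protein that captures IL-18. IL-18 (Il18) acts on NK and T cells through the receptor chain Il18r1 and drives interferon-γ, and Il1rl1 encodes ST2, the receptor for the alarmin IL-33, known from mast cells, group 2 innate lymphoid cells and tissue regulatory T cells. HIF proteins bind DNA at short sites with the core ACGTG or GCGTG.

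The 250 bases before the gene start are shown for the decoy receptor Il1r2, the antagonist Il1rn and the IL-18 binding protein Il18bp, the inhibitors of the family whose levels are set against PT2385 below. The sequences are from RefSeq (GRCm38.p6), each on the strand of its gene, 5′ to 3′, and capitals mark every ACGTG or GCGTG on either strand (read as CACGT or CACGC on the other strand). Il1r2 lies at chr1:40085843-40086092 (+), Il1rn at chr2:24336610-24336859 (+, the first of its listed starts) and Il18bp at chr7:102018233-102018482 (-).
Il1r2: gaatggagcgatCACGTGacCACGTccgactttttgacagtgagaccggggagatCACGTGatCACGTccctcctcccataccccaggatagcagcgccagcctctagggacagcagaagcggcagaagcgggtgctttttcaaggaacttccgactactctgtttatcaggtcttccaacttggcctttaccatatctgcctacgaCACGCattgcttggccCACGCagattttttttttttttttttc
Il1rn: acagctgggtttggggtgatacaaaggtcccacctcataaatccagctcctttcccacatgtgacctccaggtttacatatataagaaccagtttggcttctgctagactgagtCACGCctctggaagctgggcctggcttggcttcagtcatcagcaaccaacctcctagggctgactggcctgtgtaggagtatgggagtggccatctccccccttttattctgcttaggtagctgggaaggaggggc
Il18bp: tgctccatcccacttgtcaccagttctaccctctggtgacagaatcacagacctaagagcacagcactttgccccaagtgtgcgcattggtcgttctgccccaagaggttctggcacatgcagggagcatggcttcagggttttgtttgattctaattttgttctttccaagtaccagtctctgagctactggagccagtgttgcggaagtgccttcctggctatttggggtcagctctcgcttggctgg
The Il1r2 stretch holds 6 matches of ACGTG counted over both strands, at 4 places because CACGTG reads the same on both, and 2 of GCGTG. Among 27025 mouse promoters of the same length, 16.6% held ACGTG, 28.2% held GCGTG, 38.6% held either, and 0.0814% held at least 6 ACGTG matches. That cut of 6 is the count of Il1r2 itself, so the last share is a description of this stretch and no test. The Il1rn stretch has 1 GCGTG and the Il18bp stretch has neither. Of the 10 genes, each at its first listed start, 4 held either core (Il1r2, Il1r1, Il1rn and Il1rap), a share near that of all promoters, and the letters do not say whether a factor binds.

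The 7 libraries held 41033 barcodes with 59839154 to 81960504 unique molecular identifiers (UMIs) each, and 40416 barcodes were kept. Cells were placed in classes from marker transcripts that include none of the 10 genes, so each class name means cells that look like that type by transcript. With all libraries joined, the median microglial cell carried 9 of 9 microglia markers, 2 of 11 macrophage markers and 0 of 8 monocyte markers. Among other conditions, the gate itself required at least 5 microglia markers and fewer than 4 monocyte markers. Microglia with no monocyte marker were 65.9% and 72.5% of the class in the PT2385+ICB pools and 44.6% to 62.6% in the other libraries. 30571 cells fell in 23 classes, 4241 carried markers of more than 1 lineage and were set aside as possible doublets, and 5604 stayed unassigned. The mixed cells had a median of 21392 UMIs and the unassigned cells 2129.5. 180 barcodes occurred in 2 or more libraries. Although the sort was for CD45, 1369 cells matched choroid plexus markers, 96 neural or glioma markers and 37 endothelial markers. Monocytes and macrophages form a range: 5889 of 16760 such cells lay near a boundary between monocytes, an intermediate class and macrophages. Group makeup differed: microglia were 23.2% and 31.8% of kept cells in the PT2385+ICB pools, 6.57% and 8.61% in the PT2385 pools, 12.6% and 11.1% in the ICB pools and 4.28% in the untreated pool. Levels are given as CPM, the UMIs of a gene per 1000000 UMIs of its class in a library, and a 3′ count does not separate membrane from soluble isoforms of a gene or measure protein.

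The agonist Il1a was highest in microglia. It averaged 286 ± 63.5 CPM in microglia (SD, n = 7 libraries), 17.2 ± 8.50 CPM in macrophages and 9.62 CPM in monocytes, and every microglial value lay above every value of another class of sufficient size. In microglia the Il1a level was 388 and 339.8 CPM in the PT2385+ICB pools, 315 and 267 CPM in the PT2385 pools, 209 and 243 CPM in the ICB pools and 242 CPM in the untreated pool. Microglia were 13.3% of kept cells and held 51.9% of all Il1a UMIs, and the mixed-lineage cells held 34.1%. After each cell was thinned to 3000 UMIs, Il1a was seen in 46.3% of microglia, against 65.1% without thinning.

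Il1b had another distribution and was highest in monocyte and macrophage classes and in a few rarer myeloid ones. It averaged 3355 ± 641 CPM in monocytes, 3333 ± 574 CPM in intermediate cells, 2216 ± 570 CPM in macrophages, 685 ± 197 CPM in migratory dendritic cells and 415 ± 152 CPM in microglia (SD, n = 7 libraries each). The ranges of Il1b in monocytes, intermediate cells and macrophages overlapped, whereas no macrophage value came down to the migratory dendritic range. In classes with few cells, read with all libraries joined, Il1b stood at 3821 CPM in 85 neutrophils, 2707 CPM in 259 type 2 dendritic cells and 1449 CPM in 175 border macrophages. The neutrophil value leans on ICB pool 1, which gave 42 of the 85 cells and had 2100 CPM of Il1b, and the other 43 neutrophils joined had 6355 CPM. At 3000 UMIs a cell, Il1b was seen in 92.9% of monocytes and 20.2% of microglia, beside 7.93% of CD8 T and 10.2% of NK cells, which should lack it. Median depths were 9608, 8106, 7727 and 5458 UMIs in the same order. The Il1b values of T and NK classes, between 11.8 and 84.3 CPM, were therefore read as the level of free RNA and not as expression.

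The agonist Il18 was found in microglia as well as in monocyte and macrophage classes. Il18 averaged 67.7 ± 3.84 CPM in microglia, 65.9 ± 12.6 CPM in monocytes, 46.4 ± 3.69 CPM in intermediate cells and 36.6 ± 3.83 CPM in macrophages (SD, n = 7 libraries). Microglia and monocytes overlapped in Il18, and every monocyte value lay above every intermediate one. It was seen in 19.2% of microglia at 3000 UMIs, against 0.14% of CD8 T cells.

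**Figure D1:**
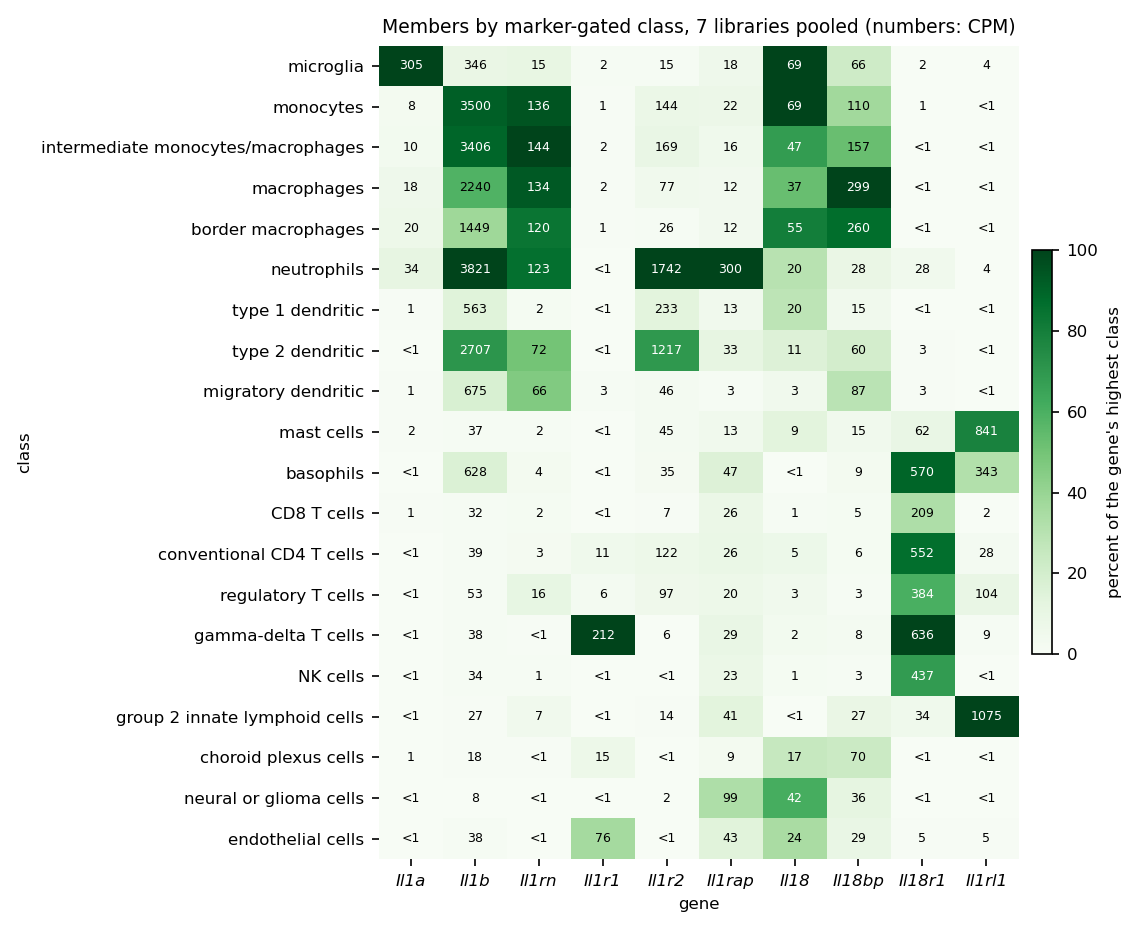
Level of each of the 10 genes (columns) in 20 cell classes (rows) with all libraries joined. The number in a cell is CPM and its colour the percentage of that gene's highest class. Il1a peaks in microglia at 305 CPM, Il1b and Il1r2 in neutrophils at 3821 and 1742 CPM (85 cells, 42 of them from ICB pool 1, without which the values are 6355 and 2187 CPM), Il18bp in macrophages at 299 CPM and Il1rl1 in group 2 innate lymphoid cells at 1075 CPM.

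The antagonist Il1rn was highest in monocyte and macrophage classes and low in microglia. It averaged 131 ± 42.9 CPM in monocytes, 143 ± 30.0 CPM in intermediate cells, 131 ± 24.2 CPM in macrophages, 66.9 ± 23.2 CPM in migratory dendritic cells and 19.1 ± 12.2 CPM in microglia (SD, n = 7). Il1rn in monocytes, intermediate cells and macrophages overlapped, and all macrophage values were above all migratory dendritic values. Il18bp was highest in macrophages, at 296 ± 129 CPM, ahead of 153 ± 56.3 CPM in intermediate cells, 118 ± 50.0 CPM in monocytes, 90.0 ± 27.4 CPM in migratory dendritic cells and 85.9 ± 53.2 CPM in microglia. Macrophages held 53.4% of all Il18bp UMIs. Il18bp was seen in 44.8% of macrophages at 3000 UMIs, against 1.00% of NK cells.

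The decoy receptor Il1r2 was shared by myeloid and CD4 lineages. With libraries joined it was highest in neutrophils, at 1742 CPM (1439 CPM in ICB pool 1, and 2187 CPM in the other libraries joined), and in type 2 dendritic cells, at 1217 CPM, where every library had between 915 and 1548 CPM from 16 to 65 cells. In classes of sufficient size Il1r2 averaged 161 ± 84.4 CPM in intermediate cells, 137 ± 60.4 CPM in monocytes, 117 ± 64.8 CPM in conventional CD4 T cells, 103 ± 30.2 CPM in regulatory T cells and 77.2 ± 57.6 CPM in macrophages (SD, n = 7), and in microglia it lay between 4.45 and 34.0 CPM. Il1r2 ranges of these neighbours overlapped, and the spread within a class was wide.

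The signalling receptor was at very low levels in the classes that carried Il1a and Il1b. Il1r1 stayed between 0.305 and 4.00 CPM in monocytes, intermediate cells, macrophages and microglia of every library. No Il1r1 UMI was counted in 1538 CD8 T cells or 1107 NK cells, where the exact 95% Clopper-Pearson bounds on the share of cells with a UMI reach 0.240% and 0.333% and cover counting error only. Il1r1 was highest in γδ T cells, in which it was seen in 61 of 148 cells, at 366 and 321 CPM in the PT2385+ICB pools, 457 and 88.5 CPM in the PT2385 pools, 119 and 172 CPM in the ICB pools and 384 CPM in the untreated pool. These γδ values come from 10 to 48 cells a library, and the groups were not compared. With libraries joined, Il1r1 reached 76.5 CPM in endothelial cells, and it averaged 12.0 ± 8.17 CPM in conventional CD4 T cells (SD, n = 7). The accessory chain Il1rap was low and widespread, from 3.01 CPM in migratory dendritic cells to 25.6 ± 5.36 CPM in CD8 T cells, with 299.97 CPM in neutrophils and 99.5 CPM in neural or glioma cells when libraries were joined.

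The IL-18 and IL-33 receptors lay on lymphocytes and on the rarer type 2 cells. Il18r1 averaged 556 ± 91.9 CPM in conventional CD4 T cells, 422 ± 69.8 CPM in NK cells, 403 ± 76.2 CPM in regulatory T cells and 208 ± 51.5 CPM in CD8 T cells (SD, n = 7), and every regulatory T value was above every CD8 T value. With libraries joined, Il18r1 reached 636 CPM in γδ T cells and 570 CPM in 103 basophils, of which 95 came from ICB pool 1. Il1rl1 was highest in group 2 innate lymphoid cells, at 1075 CPM in only 25 cells, followed by 841 CPM in 154 mast cells and 343 CPM in the basophils. Among larger classes Il1rl1 averaged 109 ± 37.1 CPM in regulatory T cells and 27.3 ± 8.91 CPM in conventional CD4 T cells, and the ranges did not overlap. It was seen in 16.2% of regulatory T cells at 3000 UMIs, against 0.1% of NK cells.

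**Figure D2:**
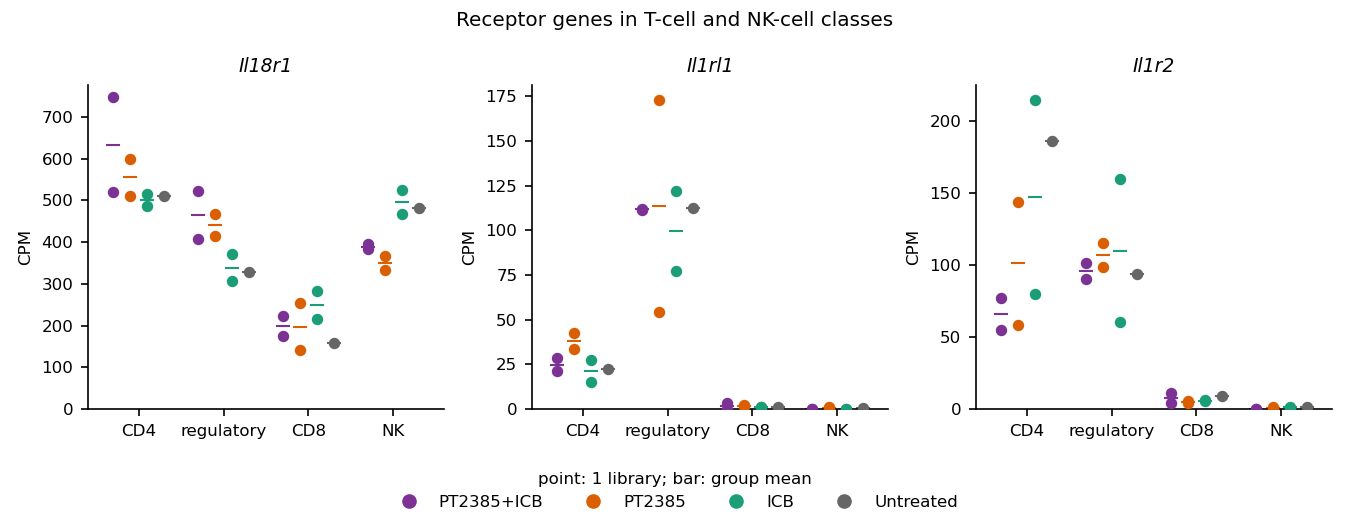
Il18r1, Il1rl1 and Il1r2 (panels) in conventional CD4, regulatory and CD8 T cells and NK cells; each point is the CPM of 1 library, each bar a group mean, and colours are the 4 treatment groups. Il1rl1 stands at 54.6 to 173 CPM in regulatory T cells and at 15.4 to 42.4 CPM in conventional CD4 T cells over all groups.

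Differences between classes were tested within libraries with edgeR's quasi-likelihood test and Benjamini-Hochberg adjustment over all genes. Between monocytes and macrophages 6 of the 10 genes passed, where 39.4% of all genes did. Monocytes had more Il1r2 (log2 fold change 0.94 ± 0.22 SE, edgeR adjusted p = 0.000516), Il18 (0.82 ± 0.13, adjusted p = 4.67e-07), Il1rap (0.78 ± 0.16, adjusted p = 5.41e-05) and Il1b (0.59 ± 0.19, adjusted p = 0.00983). Macrophages had more Il18bp (-1.35 ± 0.18, edgeR adjusted p = 2.09e-08) and Il1a (-0.93 ± 0.18, adjusted p = 3.46e-05). Between macrophages and microglia 8 of 10 passed, against 73.1% of all genes, a share close to the background. Macrophages exceeded microglia in Il1rn (3.22 ± 0.20, edgeR adjusted p = 4.22e-21), Il1b (2.72 ± 0.20), Il1r2 (2.34 ± 0.25) and Il18bp (2.08 ± 0.19), and fell below them in Il1a (-3.83 ± 0.16, adjusted p = 4.35e-29), Il1rl1 (-3.35 ± 0.42), Il18 (-0.62 ± 0.13) and Il18r1 (-0.94 ± 0.39, adjusted p = 0.0284). Il1rl1 was near the floor in both classes, at no more than 0.423 CPM in macrophages and 0.843 to 5.96 CPM in microglia. The Il18r1 call, at levels of at most 5.25 CPM, missed the threshold when PT2385 pool 2 was dropped (-0.89, edgeR adjusted p = 0.0543) or PT2385+ICB pool 1 (-0.47, adjusted p = 0.354).

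Regulatory T cells had more Il1rl1 than conventional CD4 T cells (log2 fold change 1.93 ± 0.27 SE, edgeR adjusted p = 2.67e-07) and more Il1rn (2.27 ± 0.53, adjusted p = 0.00105), and less Il18r1 (-0.51 ± 0.19, adjusted p = 0.0461). These were 3 of the 10 genes, against 17.9% of all genes. The Il18r1 difference missed the threshold without each of the 7 libraries in turn (edgeR adjusted p from 0.0554 to 0.0903), and that of Il1rn fell to 0.40 (adjusted p = 0.437) when mixed-lineage cells were left in. NK cells exceeded CD8 T cells in Il18r1 (0.98 ± 0.19, edgeR adjusted p = 1.85e-05) and had less Il1r2 (-2.99 ± 1.01, adjusted p = 0.0142), 2 of the 10 genes against 38.5% of all genes. Il1r2 was low in both, at a mean of 0.766 CPM from 7 UMIs in NK cells and 6.63 CPM from 100 UMIs in CD8 T cells.

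PT2385 was tested by comparing the 4 libraries with the inhibitor (PT2385+ICB and PT2385) with the 3 without it (ICB and untreated), allowing for ICB, in 9 classes with at least 30 cells in every library. Of the brakes of the family, Il1r2 did not pass in monocytes or intermediate cells. Il18bp rose and Il1rn fell in both, while Il18 fell and Il1a rose in monocytes. These were 6 of 66 gene-by-class tests, or 9.09%, against 0.537% of all gene-by-class tests. 28 of the 66 had an unadjusted p under 0.05 and DESeq2 called 13. Over all genes, the class shares with such an edgeR p ran from 545 of 8641 in regulatory T cells to 2149 of 11843 in monocytes. No DESeq2 share over all genes is set beside its counts, here or below. In monocytes 4 of the 9 members tested were called, against 1.72% of all genes, and in intermediate cells 2 of 8, against 1.54%. P-values measure the spread between pools of mice, and the lone untreated library is assumed to vary like the others.

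In monocytes Il18bp was 103 and 181 CPM in the PT2385+ICB pools and 173 and 148 CPM in the PT2385 pools, against 57.1 and 66.5 CPM in the ICB pools and 94.1 CPM in the untreated pool. In intermediate cells it was 142 and 206 CPM in the PT2385+ICB pools and 215 and 204 CPM in the PT2385 pools, against 80.8 and 88.3 CPM in the ICB pools and 136 CPM in the untreated pool. The libraries with and without PT2385 did not overlap in either class, though PT2385+ICB pool 1 came close to the untreated pool in both. The log2 fold change of Il18bp was 0.98 ± 0.19 (SE) in monocytes (edgeR adjusted p = 0.0397) and 0.87 ± 0.15 in intermediate cells (edgeR adjusted p = 0.0333). In macrophages, where Il18bp was highest, it was 381 CPM in each of the PT2385+ICB pools and 403 and 414 CPM in the PT2385 pools, against 89.2 and 198 CPM in the ICB pools and 208 CPM in the untreated pool. The macrophage groups were further apart, at 395 ± 16.5 CPM with PT2385 (SD, n = 4) and 165 ± 65.9 CPM without (n = 3), but the difference of 1.23 ± 0.28 did not pass (edgeR adjusted p = 0.0993).

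**Figure D3:**
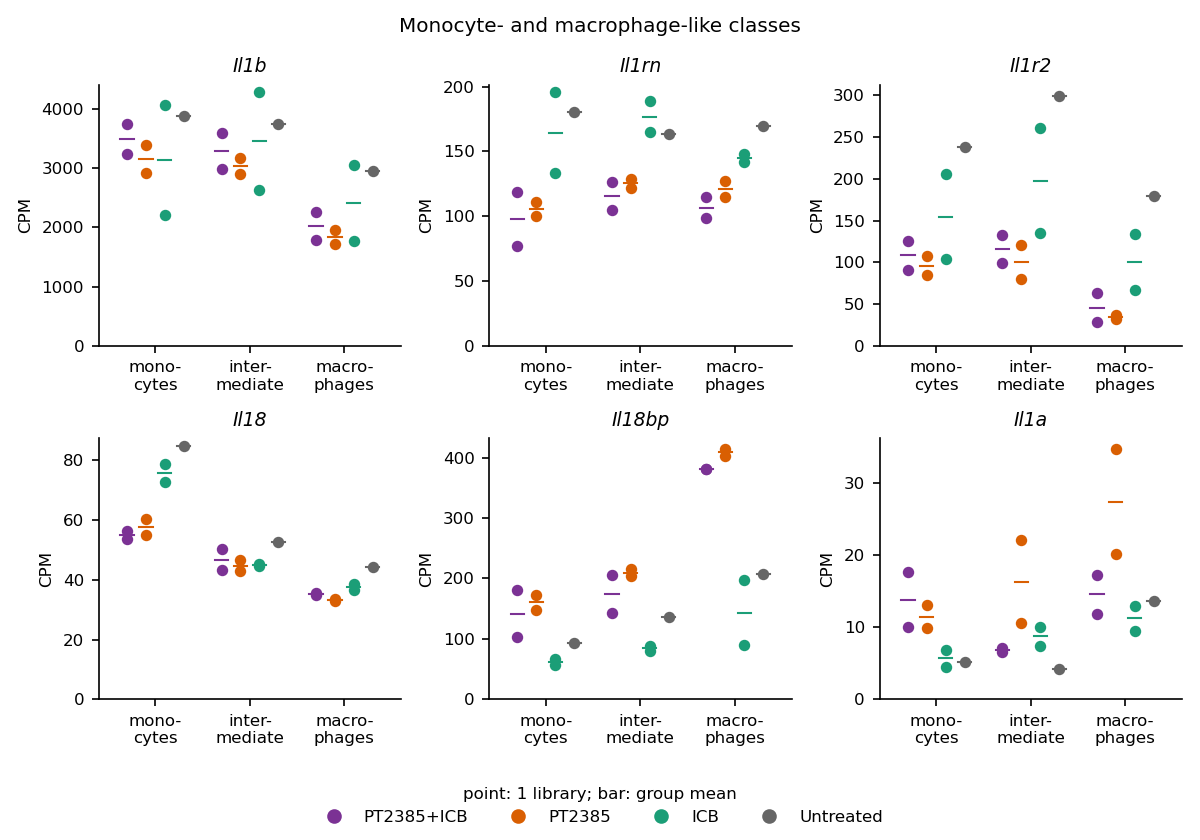
Il1b, Il1rn, Il1r2, Il18, Il18bp and Il1a (panels) in monocytes, intermediate cells and macrophages; each point is the CPM of 1 library and each bar a group mean. In macrophages Il18bp lies at 381 to 414 CPM in the PT2385+ICB and PT2385 pools and at 89.2 to 208 CPM in the ICB and untreated pools, and Il1b shows no such split.

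The receptor antagonist went the other way. In monocytes Il1rn was 77.1 and 119 CPM in the PT2385+ICB pools and 111 and 100.3 CPM in the PT2385 pools, against 196 and 133 CPM in the ICB pools and 181 CPM in the untreated pool, a log2 fold change of -0.78 ± 0.16 (SE, edgeR adjusted p = 0.0466). In intermediate cells it was 105 and 126 CPM in the PT2385+ICB pools and 122 and 129 CPM in the PT2385 pools, against 189 and 165 CPM in the ICB pools and 164 CPM in the untreated pool (-0.51 ± 0.09, edgeR adjusted p = 0.0345). No library with PT2385 reached a library without it in either class. In macrophages Il1rn averaged 114 ± 11.7 CPM with PT2385 and 153 ± 14.8 CPM without (SD, n = 4 and 3), a difference of -0.44 ± 0.10 that did not pass (edgeR adjusted p = 0.0887).

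Both agonists that passed did so in monocytes and in no other class tested. Il18 was 56.3 and 53.6 CPM in the PT2385+ICB pools and 54.8 and 60.4 CPM in the PT2385 pools, against 78.7 and 72.5 CPM in the ICB pools and 84.6 CPM in the untreated pool (log2 fold change -0.52 ± 0.08 SE, edgeR adjusted p = 0.0242). Il1a, at a low level, was 10.0 and 17.7 CPM in the PT2385+ICB pools and 9.86 and 13.1 CPM in the PT2385 pools, against 6.85 and 4.55 CPM in the ICB pools and 5.26 CPM in the untreated pool (1.20 ± 0.24, edgeR adjusted p = 0.0441). The groups did not overlap for either gene. Il1b, by contrast, was 3753 and 3245 CPM in monocytes of the PT2385+ICB pools and 2920 and 3389 CPM in those of the PT2385 pools, against 2216 and 4077 CPM in the ICB pools and 3888 CPM in the untreated pool. The monocyte groups overlapped fully in Il1b (-0.06 ± 0.20, edgeR adjusted p = 0.915), and the sign of its difference turned when the untreated pool was left out (0.14).

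The decoy receptor Il1r2 passed in none of monocytes, intermediate cells and macrophages, although its libraries with PT2385 had low values. In macrophages it was 62.7 and 28.5 CPM in the PT2385+ICB pools and 37.2 and 32.1 CPM in the PT2385 pools, against 133 and 66.8 CPM in the ICB pools and 179 CPM in the untreated pool. No PT2385-treated library reached the others, but ICB pool 2 lay close to PT2385+ICB pool 1, and the libraries without PT2385 were far apart. The difference was -1.64 ± 0.37 (SE) in macrophages (edgeR adjusted p = 0.0976), -1.10 ± 0.25 in intermediate cells (edgeR adjusted p = 0.0708) and -0.86 ± 0.25 in monocytes (edgeR adjusted p = 0.115). Il1r2 was seen in 12.8% of macrophages at 3000 UMIs, between 5.41% and 9.17% in libraries with PT2385 and between 10.6% and 26.4% in those without, against 0.402% of NK cells.

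The calls depended on single libraries. None of the 6 passed without the untreated pool (edgeR adjusted p from 0.103 to 0.284), PT2385 pool 1 (0.101 to 0.161), PT2385 pool 2 (0.0709 to 0.123) or PT2385+ICB pool 2 (0.0653 to 0.146). Without PT2385+ICB pool 1, Il1rn in monocytes (adjusted p = 0.104) and intermediate cells (0.0575) and Il1a in monocytes (0.0555) were lost in the same edgeR test, and all 6 kept their sign in each of these fits. Leaving out either ICB pool raised the number of called member tests to 11, a count given without the share over all genes in those fits. The summed level of the 8 monocyte markers in monocytes was 7506 and 7216 CPM in the PT2385+ICB pools and 6943 and 8376 CPM in the PT2385 pools, against 9834 and 9580 CPM in the ICB pools and 9884 CPM in the untreated pool, and its part in the monocyte results was not tested. In intermediate cells these sums overlapped, at 3938 to 5249 CPM with PT2385 and 4876 to 5702 CPM without. When the 3 classes were joined, Il1rn (-0.51, edgeR adjusted p = 0.0593), Il18bp (1.20, 0.0632) and Il1r2 (-1.24, 0.105) kept their sign and none passed. With mixed-lineage cells kept, Il1rn (-0.76, edgeR adjusted p = 0.0531) and Il1a (1.13, 0.0548) in monocytes missed the threshold.

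**Figure D4:**
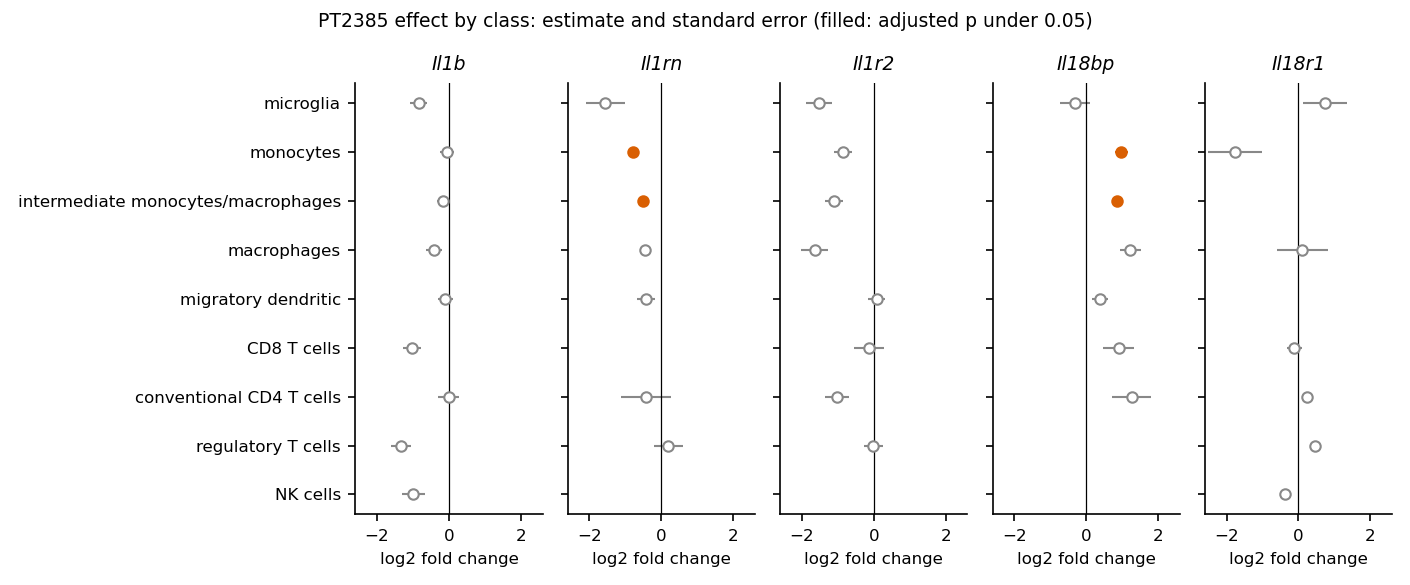
Log2 fold change of PT2385-treated over other libraries (point, with its SE as a bar) for Il1b, Il1rn, Il1r2, Il18bp and Il18r1 in 9 cell classes; filled points have an edgeR adjusted p under 0.05. Il18bp is above 0 in monocytes, intermediate cells and macrophages, at 0.87 to 1.23, and Il1rn and Il1r2 are below 0 there, at -0.44 to -1.64.

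Outside monocytes and intermediate cells no member passed for PT2385. Il18r1 in NK cells came nearest in the lymphocytes, at 383 and 395 CPM in the PT2385+ICB pools and 368 and 333 CPM in the PT2385 pools, against 467 and 526 CPM in the ICB pools and 481 CPM in the untreated pool. Those groups did not overlap, and the difference of -0.38 ± 0.10 (SE) did not pass (edgeR adjusted p = 0.0672). In regulatory T cells the difference in Il18r1 had the opposite sign, 0.45 ± 0.13 (edgeR adjusted p = 0.450), and the difference between the classes was not tested. Il1a in microglia averaged 328 ± 50.3 CPM with PT2385 and 231 ± 19.0 CPM without (SD, n = 4 and 3), a difference of 0.48 ± 0.13 that did not pass (edgeR adjusted p = 0.229). Il1r1 in macrophages was at 0.817 ± 0.149 CPM with PT2385 and 2.26 ± 0.704 CPM without (-1.55 ± 0.26, edgeR adjusted p = 0.0650).

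ICB was tested as the 4 libraries with the antibodies against the 3 without. By edgeR 0 of 66 member tests passed, against 0.0406% of all tests. 8 of the 66 had an unadjusted p under 0.05 and DESeq2 called 1. Over all genes, the class shares with such an edgeR p ran from 443 of 10298 in CD8 T cells to 2065 of 13486 in microglia. Apart from Il1b in conventional CD4 T cells, read as free RNA, the smallest p was that of Il1b in microglia, at 345 ± 169 CPM with ICB (SD, n = 4) and 509.9 ± 53.6 CPM without (n = 3), a log2 difference of -0.90 ± 0.23 (edgeR adjusted p = 0.153). Il18bp in microglia had a difference of -1.57 ± 0.42 (edgeR adjusted p = 0.155), with 35.3 and 37.4 CPM in the PT2385+ICB pools and 37.3 and 94.6 CPM in the ICB pools, against 166 and 143 CPM in the PT2385 pools and 87.9 CPM in the untreated pool. ICB pool 2 lay above the untreated pool. The 2 ICB pools differed from each other in several members: macrophage Il1b was 1773 CPM in pool 1 and 3052 CPM in pool 2, and Il18bp 89.2 and 198 CPM.

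The combination was set against ICB alone, the question whether the inhibitor adds to checkpoint blockade, and against no treatment. All members that passed were in microglia. Against ICB, Il1b, Il1rn and Il1r2 fell and Il1a rose in microglia, 4 of 66 tests or 6.06%, against 1.77% of all tests. Within microglia these were 4 of the 10 members tested, against 12.6% of all genes. 23 of the 66 had an unadjusted p under 0.05 and DESeq2 called 6. Over all genes, the class shares with such an edgeR p ran from 516 of 8641 in regulatory T cells to 3772 of 13486 in microglia. Against untreated, Il1b alone passed, with a fall, 1 of 66 tests or 1.52%, against 0.481% of all tests. Within microglia this was 1 of 10 members, against 3.06% of all genes. 25 of the 66 had an unadjusted p under 0.05 and DESeq2 called 3. Here the all-gene class shares ran from 466 of 8641 in regulatory T cells to 2376 of 13486 in microglia. Il1b in microglia was 238 and 195 CPM in the PT2385+ICB pools, 464 and 497 CPM in the PT2385 pools, 374 and 571 CPM in the ICB pools and 569 CPM in the untreated pool. Both combination pools lay below the other 5 libraries. The log2 fold change of Il1b was -1.20 ± 0.20 (SE) against ICB (edgeR adjusted p = 0.00467) and -1.51 ± 0.23 against untreated (edgeR adjusted p = 0.00943). Il1a, the agonist proper to microglia, went up, at 364 ± 33.9 CPM in the PT2385+ICB pools and 226 ± 23.5 CPM in the ICB pools (SD, n = 2 each), a difference of 0.62 ± 0.13 (edgeR adjusted p = 0.0152). Il1rn was 4.80 and 5.52 CPM in the PT2385+ICB pools, 24.7 and 22.4 CPM in the PT2385 pools, 13.7 and 39.5 CPM in the ICB pools and 22.9 CPM in the untreated pool (-2.43 ± 0.42 against ICB, edgeR adjusted p = 0.00616). Il1r2 was 11.6 and 4.45 CPM in the PT2385+ICB pools and 34.0 and 16.3 CPM in the ICB pools (-1.76 ± 0.41, edgeR adjusted p = 0.0225).

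Markers of macrophages and monocytes moved with these results. The summed level of the 11 macrophage markers in microglia was 1884 and 1599 CPM in the PT2385+ICB pools, 3933 and 3690 CPM in the PT2385 pools, 3378 and 5234 CPM in the ICB pools and 4743 CPM in the untreated pool and, as for Il1b, both PT2385+ICB pools lay below the other 5 libraries. The 8 monocyte markers summed to 101 and 87.3 CPM in the PT2385+ICB pools, against 174 to 261 CPM in the other 5 libraries. The 9 microglia markers went the other way, with Il1a, at 6905 and 8198 CPM in the PT2385+ICB pools and 4410 to 6376 CPM in the other 5 libraries. So did 9 genes known to rise when tissue is dissociated, such as Fos and Jun, which summed to 12280 and 13298 CPM in microglia of the PT2385+ICB pools and to 7965 to 11350 CPM in the other 5. The part of these markers in the microglial results was not tested, beyond the fit in the next paragraph. The summed level of the macrophage list did not set macrophages apart from monocytes. It was 15988 to 20163.5 CPM in monocytes and 10585 to 18552 CPM in macrophages. By number of markers detected, which was part of the gate, the median macrophage carried 7 of the 11 and the median monocyte 5. The list's gene Lyz2 was also listed as shared by microglia, monocytes and macrophages.

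Among microglia with no UMI of any monocyte marker, an alternative added after the data were seen that kept between 152 and 1251 cells a library, 0 members passed in either comparison. It kept 65.9% and 72.5% of microglia in the PT2385+ICB pools and 44.6% to 62.6% in the other libraries. Il1rn then rested on 1 to 28 UMIs a library and Il1r2 on 2 to 47, too few to show that a difference was absent. There Il1b was 145 and 105 CPM in the PT2385+ICB pools, against 60.1 and 207 CPM in the ICB pools, 194 and 78.4 CPM in the PT2385 pools and 176 CPM in the untreated pool, and the groups overlapped. The difference against ICB was then -0.10 for Il1b (edgeR adjusted p = 0.991), -0.52 for Il1rn (0.951), -0.47 for Il1r2 (0.956) and 0.41 for Il1a (0.857), and that of Il1b against untreated was -0.56 (edgeR adjusted p = 0.819). With all microglia, Il1b against untreated was lost without PT2385+ICB pool 2 (-1.36, edgeR adjusted p = 0.0594), Il1a without PT2385+ICB pool 1 (0.51, 0.113), and Il1r2 without PT2385 pool 1 (0.0593), PT2385 pool 2 (0.0580), ICB pool 1 (0.0913) or PT2385+ICB pool 2 (0.109). Without ICB pool 2 the Il1rn difference was -1.44. With mixed-lineage cells kept, Il1b (-0.94, edgeR adjusted p = 0.0556) and Il1r2 (0.0755) missed the threshold against ICB, and DESeq2 did not call Il1r2 (-1.70, adjusted p = 0.113).

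**Figure D5:**
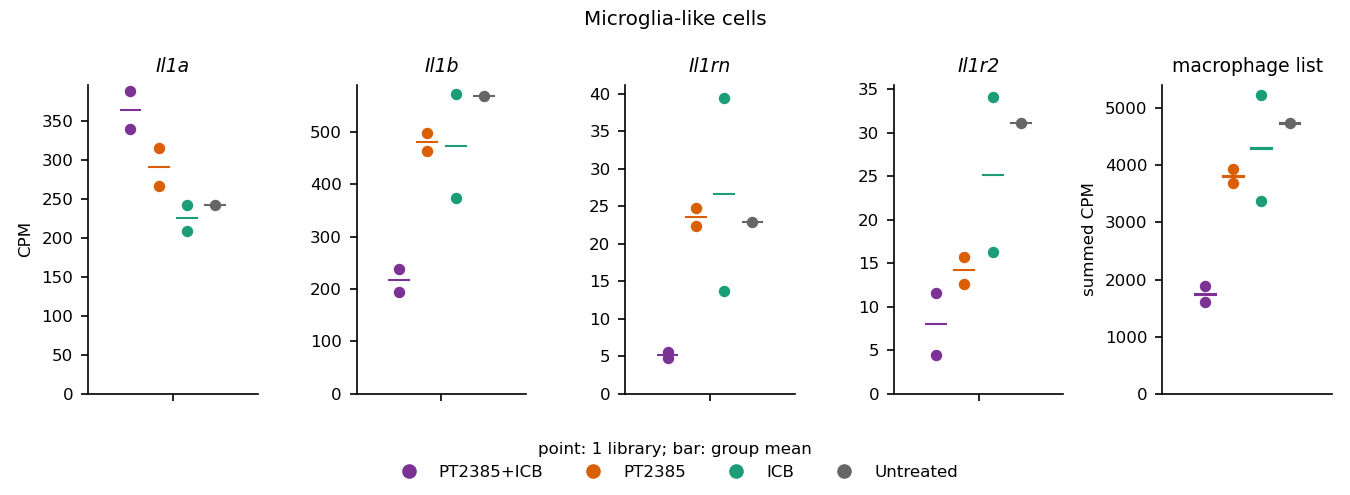
Il1a, Il1b, Il1rn and Il1r2 and the summed level of the macrophage markers (panels) in microglia; each point is the CPM of 1 library and each bar a group mean. Il1b and the macrophage markers are both lowest in the PT2385+ICB pools (238 and 195 CPM, and 1884 and 1599 CPM), where Il1a is highest (388 and 339.8 CPM).

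Whether the PT2385 difference itself changed with ICB was tested by the interaction, the PT2385 difference with ICB minus that without it. 0 of 66 member tests passed by edgeR, against 0.685% of all tests, with 11 at an unadjusted p under 0.05 and 1 called by DESeq2. Over all genes, the class shares with such an edgeR p ran from 294 of 8641 in regulatory T cells to 2888 of 13486 in microglia. The smallest adjusted p was that of Il1rn in microglia (-2.46 ± 0.71 SE on the log2 scale, edgeR adjusted p = 0.0807). In dendritic cells Il1r2 had 60.4 and 77.3 CPM in the migratory class of the PT2385+ICB pools, above 29.6 and 32.2 CPM in the PT2385 pools, 49.8 and 38.4 CPM in the ICB pools and 46.9 CPM in the untreated pool, with an interaction of 1.24 ± 0.40 that did not pass (unadjusted p = 0.00608, edgeR adjusted p near 1).

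The genes around the family were counted from 5 lists of 75 genes, chosen with earlier results of these data known. For PT2385, 8 of 165 tests of NF-κB and interleukin 1 response genes fell and 0 rose, with a median log2 fold change of -0.13, beside class medians over all genes between -0.00 and 0.02. Among all gene-by-class tests 0.378% fell, 373 of the 529 that passed, so falls outnumbered rises outside the lists too. In intermediate cells these were Ccl4, a chemokine for T cells and monocytes (112 ± 34.9 CPM with PT2385 and 269 ± 80.0 CPM without, SD, n = 4 and 3, -1.21 ± 0.24, edgeR adjusted p = 0.0417), the neutrophil chemokine Cxcl2, Nfkbiz and Bcl2a1b, a gene with near-identical copies that share reads and whose count is therefore uncertain, and in monocytes the NF-κB inhibitor Nfkbia. In NK cells Tnfaip3, which encodes the NF-κB inhibitor A20, was 354 ± 59.9 CPM with PT2385 and 598 ± 80.4 CPM without (-0.75 ± 0.12, edgeR adjusted p = 0.00368), and Birc3 and Nfkbiz fell too. The 9 dissociation genes also stood lower in NK cells with PT2385, at 2306 and 1834 CPM in the PT2385+ICB pools and 2064 and 1815 CPM in the PT2385 pools, against 2616 and 2492 CPM in the ICB pools and 2611 CPM in the untreated pool, and their part in the NK results was not tested. Of the receptor signalling genes 2 of 147 tests fell, both Nfkb1, in intermediate and NK cells, and 0 rose. Of the IL-18 and IL-33 response genes 1 of 73 fell, the activation marker Cd69, in intermediate cells rather than in lymphocytes (29.5 ± 2.44 CPM with PT2385 and 59.6 ± 13.4 CPM without, -1.02 ± 0.15, edgeR adjusted p = 0.0190), with a list median of -0.36. 0 of 99 tests of inflammasome genes passed, with a median of 0.03, and of the other family members 1 of 28 fell, the IL-36 receptor Il1rl2 in monocytes, at levels of at most 9.55 CPM. Of the 11 called tests at 20 CPM or more, 8 passed without either ICB pool, 4 without PT2385 pool 1, 2 without PT2385 pool 2, 3 without PT2385+ICB pool 1, 1 without PT2385+ICB pool 2 and 0 without the untreated pool. With mixed-lineage cells kept 3 of the 11 passed. In a smaller comparison, of PT2385 alone with the 1 untreated pool, 0 passed.

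For ICB, the 1 listed gene that passed was the chemokine Ccl3, lower in conventional CD4 T cells at 104 ± 47.6 CPM with ICB and 448 ± 170 CPM without (SD, n = 4 and 3, -2.02 ± 0.32, edgeR adjusted p = 0.0415). It was lost without either PT2385 pool or either ICB pool (edgeR adjusted p from 0.0613 to 0.241). The same held with mixed-lineage cells kept and under the strict cell filter. Ccl3 also did not pass in a smaller comparison, of ICB alone with the untreated pool. The 8 monocyte markers summed in conventional CD4 T cells to 683 and 622 CPM in the PT2385+ICB pools and 574 and 664 CPM in the ICB pools, against 944 and 1436 CPM in the PT2385 pools and 877 CPM in the untreated pool, and their part in the Ccl3 result was not tested. The same sum was 672 to 2378 CPM in CD8 T cells, and whether T cells make part of it themselves was not tested. Between PT2385+ICB and untreated mice 1 NF-κB response gene rose and 1 fell of 165 tests, against 0.481% of all tests in either direction. The adhesion molecule gene Icam1 rose in microglia, at 577 ± 42.4 CPM against 251 CPM (1.09 ± 0.13, edgeR adjusted p = 0.00352), and Tnfaip3 fell in NK cells, at 345 ± 98.0 CPM against 654 CPM (-0.91 ± 0.19, edgeR adjusted p = 0.0402, lost without either PT2385 pool and without PT2385+ICB pool 1). Against ICB, Icam1 also rose in microglia (577 against 340.4 CPM, 0.70 ± 0.10, edgeR adjusted p = 0.00261), Nfkbid rose by 0.61 ± 0.13 and Bcl2a1b fell by 0.46 ± 0.11. Nfkbid was lost without PT2385+ICB pool 1, and Bcl2a1b without either PT2385 pool, ICB pool 1 or PT2385+ICB pool 2. Xcl1, a chemokine for cross-presenting dendritic cells, fell in CD8 T cells, at 84.6 ± 35.7 CPM in the PT2385+ICB pools and 356 ± 7.11 CPM in the ICB pools (-2.11 ± 0.25, edgeR adjusted p = 0.0215). The dissociation genes in CD8 T cells summed to 1329 and 1414 CPM in the PT2385+ICB pools and 1871 and 1716 CPM in the ICB pools, and in microglia they were higher in the PT2385+ICB pools, as were Icam1 and Nfkbid; their part was not tested. In microglia at low levels, the inflammasome gene Mefv fell against both, and Nlrc4 and the signalling inhibitor Irak3 fell against ICB. In the interaction Nfkbiz, Txnip and Tnfaip3 were positive and Sod2 negative in microglia, and each of the 4 was lost with mixed-lineage cells kept and without any 1 of the 4 pools given PT2385, Txnip also without ICB pool 2. None of the microglial calls against ICB and none of the interaction calls, among the genes at 20 CPM or more, passed in microglia with no UMI of a monocyte marker, whereas Icam1 against untreated did.

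The genes whose level ran most like a member over 63 sums, of 9 classes in 7 libraries, were ranked by Spearman correlation among 10181 genes, as a description, since the sums share libraries and depth. Il1b ran closest with Gm34084 (rho 0.968), Gpr35 (0.941) and Alpk1 (0.934), and Il1rn with Nod2 (0.933), Ifrd1 (0.932) and Cdkn1a (0.923). Il1r2 had looser neighbours, Pqlc1 (0.865), Jarid2 (0.821) and Fem1c (0.804). Il18 ran with Il6ra (0.892) and E230029C05Rik (0.885), among others, and Il1rl1 with Cd99l2 (0.844), Itgav (0.835) and Fam3c (0.834).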

How the data were processed

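Single-cell 3′ libraries (10x) of sorted CD45+ DRAQ7- cells were analysed from the deposited UMI counts per gene and barcode, which the authors had already limited to called cells. Per the submitters' processing notes these counts came from Cell Ranger 2.2.0 with the GRCm39 genome, and Seurat 5 was used downstream; per the file headers the Cell Ranger version is 7.0.0. The aligner settings are not given in the sources used here.

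A barcode entered the analysis when it had 300 genes or more and no more than 10% of its UMIs from mitochondrial genes. Cells were gated on counts of detected marker genes. No doublet caller was run, and cells with markers of more than 1 lineage were excluded instead. Gate thresholds were set after marker detection was seen and without the values of the 10 genes. The members, lists and tests were chosen with earlier results of these data known. Depth ranged from 59839154 to 81960504 UMIs a library, and intervals on shares cover counting error only.

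Counts were summed per library and class. Tests were limited to the 9 classes that reached 30 cells in all 7 libraries and were run in edgeR 4.0.16 (R 4.3.3) by the quasi-likelihood test with TMM scaling and filterByExpr, with Benjamini-Hochberg adjustment over genes within a class at 0.05. The SE was derived as |log2 fold change| / √F. PT2385 and ICB effects came from an additive model (4 residual degrees of freedom), other comparisons from 1 mean per group (3). Classes were compared with class and library in the model; 3 further class pairs planned had too few cells and were not run. Genes of the pathway lists were named when called at a mean of at least 20 CPM, up to 3 rises and 3 falls per comparison, and the other called genes are named because they are few, a choice made with their values in view. Likeness used log2(CPM + 1) and genes of at least 5 CPM. The 3 most alike genes were named for each of 5 members, except 1 gene that is not reported here. Shares of cells were compared after thinning to 3000 UMIs. The steps were tested on simulated data.

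Alternatives were other size factors, no gene filter, DESeq2 1.42.0, stricter cells (500 genes, 5% mitochondrial), no mixed-cell exclusion and leaving out each library. Promoters are RefSeq GRCm38.p6, a build other than that of the counts, and were matched by symbol (10 of 10). Scripts used Python 3.11.15, numpy 2.4.6, scipy 1.17.1, pandas 2.3.3 and matplotlib 3.10.9.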

Additional observations from a re-analysis of the deposited data

Results flagged for a closer look

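Groups of 1 or 2 libraries are too small for an outlier check within a group, and the effect of leaving out each library is given with the results and under processing. What did stand out is that the difference between the PT2385+ICB and untreated mice had opposite signs in different cell classes for 2 of the inhibitors, in both PT2385+ICB pools. These differences between classes were not tested. The values are log2 differences of mean CPM + 1.

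The decoy receptor Il1r2 was higher with the combination in migratory dendritic cells (0.55, at 60.4 and 77.3 CPM in the PT2385+ICB pools against 46.9 CPM in the untreated pool) and lower in monocytes (-1.13), intermediate cells (-1.36), macrophages (-1.95) and conventional CD4 T cells (-1.48). Il18bp was higher with the combination in monocytes (0.59) and macrophages (0.87, at 381 CPM in each PT2385+ICB pool against 208 CPM), and lower in microglia (-1.25, at 35.3 and 37.4 CPM against 87.9 CPM). Il18bp was highest in macrophages, and the 11 macrophage markers in microglia summed to 1884 and 1599 CPM in the PT2385+ICB pools against 4743 CPM in the untreated pool. The summed level of that list did not set macrophages apart from monocytes, and its part in the microglial value was not tested. All rest on 1 untreated library.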

How the results depend on the processing

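Counts of called member tests moved with the gene filter, the tool, the cells kept and single libraries. They stand here without a share over all genes. Fits with no gene filter gave smaller SEs at like differences, so their counts are not comparable with the rest. Il1rn in microglia against ICB, for example, had -2.44 ± 0.18 (SE) without the filter and -2.43 ± 0.42 with other size factors. For PT2385 the 6 calls became 25 with no gene filter, 4 with mixed cells kept, 13 in DESeq2 and 0 with PT2385 alone against untreated. They became 0 in the joined monocyte and macrophage class, and 0 to 11 when each library was left out, 11 without either ICB pool. For ICB the 0 calls became 10 with no filter, 4 with mixed cells kept, 1 in DESeq2 and 0 to 3 leaving out libraries, 3 without the untreated pool or ICB pool 2. For PT2385+ICB against untreated the 1 call became 17, 5, 3 and 0 to 10 in the same order, and 0 in microglia with no monocyte marker, with 9 and 10 called without ICB pools 1 and 2. Against ICB the 4 calls became 18 with no filter, 2 with mixed cells kept, 0 in microglia with no monocyte marker and 3 to 14 leaving out libraries, 14 without ICB pool 2. For the interaction the 0 calls became 8 with no filter, 1 in DESeq2 and 0 to 3 leaving out libraries, 3 without either ICB pool. With mixed cells kept, regulatory against conventional CD4 T cells had 1 call in place of 3, and NK against CD8 T cells 6 in place of 2. The cause was not tested. The class calls were 6 for monocytes against macrophages in each fit that left out a library and 7 or 8 for macrophages against microglia. Il1b in monocytes under PT2385 changed sign without the untreated pool (0.14), without PT2385 pool 1 (0.01) and without ICB pool 2, with -0.30 to 0.14 over the libraries left out. Over 23 single results and 297 fits, 212 kept direction and side of the threshold, 49 lost it, 33 gained it and 3 reversed. No paired analysis was possible because the pool numbers follow record order and do not link pools across groups. With 2 pools a group, pool-to-pool spread limits precision, and levels of a few CPM rest on few UMIs.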

Other observations

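Detection of pairs of these genes in single cells was described at 3000 UMIs a cell, with no test, since cells of a library are not replicates. In macrophages, Il1r2 was seen in 8.55% of cells with Il18bp and 16.2% of cells without it (7541 cells), and the share was lower in cells with Il18bp in each of the 7 libraries. Il1rn was seen in 26.3% of macrophages with Il1b and 20.8% of those without, a share that was higher with Il1b in each of the 7 libraries. In microglia, Il1b was seen in 20.2% of cells with Il1a and 20.1% of cells without (4788 cells), with the share higher in cells with Il1a in 5 of the 7 libraries and lower in the other 2, so the joined shares do not describe the single libraries.

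In regulatory T cells, Il1rl1, the IL-33 receptor, was seen in 19.7% of cells with Il18r1 and 12.6% of cells without it (506 cells). The share was higher in 6 of the 7 libraries, and lower in PT2385+ICB pool 1.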
